A study of Mus musculus with 4 samples.

Results

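T cell receptor gene segments were the genes whose biotype in the deposited FPKM table begins with TR_, the V, D, J and C genes of the receptor loci and their pseudogenes. They numbered 270 of 54532 genes. The alpha locus (TRA) held 189 of them, the beta locus (TRB) 53, the delta locus (TRD) 11 and the gamma locus (TRG) 15, and the other 2 were V genes with clone names on chromosome 14 that were left out of the locus sums. The libraries came from wild-type (WT) mouse spleen. All libraries share a culture of 3 days in which naive CD4+ T cells were polarized towards the T follicular helper (Tfh) state, that of the T cells that drive antibody responses. The control group had no treatment and the second group received DMF (dimethyl fumarate), an electrophilic ester known to activate Nrf2, a transcription factor of the antioxidant response. Each group held 2 libraries, and nothing in the labels says that these came from separate cultures or animals, so p-values measure only the spread between the libraries, which may be technical. The title concerns DMF, Nrf2 and Tfh cells in chronic graft-versus-host disease, and the comparison here asks how receptor transcripts differed between treated and untreated cultures. FPKM is the number of fragments per kilobase of gene and per 1000000 fragments of a library size. RPM here is the number of reads per 1000000 recovered reads. The size behind the deposited FPKM differs from the recovered reads. In control replicate 2 it is the smaller of the 2, which raises the FPKM of that library.

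A developing T cell builds its receptor by V(D)J recombination, in which the RAG enzyme cuts the DNA and joins 1 V to 1 J segment, with a D segment between them in the beta and delta loci. The joined exon is spliced to a constant (C) gene, so that J, C and V sequence lie in the same mature messenger RNA. Most T cells, helper T cells among them, carry an alpha and a beta chain. Gamma delta T cells carry a gamma and a delta chain, and the delta locus lies inside the alpha locus and is deleted from a chromosome when its alpha locus rearranges. Gamma rearrangements and gamma transcripts can also occur in cells of the alpha beta lineage.

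The reads behind each FPKM value could be worked out (17171199 and 15900118 reads over all genes in control replicates 1 and 2, and 17134385 and 17516953 in DMF replicates 1 and 2). Of these, 25058, 36481, 23166 and 22649 fell in receptor segments, or 1459, 2294, 1352 and 1293 RPM. In these genes control replicate 2 was unlike the other 3. It had the most receptor reads, but only 9.91 Traj reads per 1000 Trac reads, where control replicate 1 had 123 and the DMF libraries 106 and 128. It also had 150 Trav reads per 1000 Trac reads against 354 in control replicate 1 and 320 and 328 in the DMF libraries. Its reads thus lay more in C genes and less in V and J segments. The cause was not tested, and the results that rest most on this library are given with and without it.

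The labelled cell type was checked against 8 markers of alpha beta helper T cells (Trac, Trbc1, Trbc2, the CD3 genes and Cd4), whose summed FPKM was 1666 and 3476 in the controls and 1480 and 1405 in DMF, and none was at 0. Reads of CD8 T cell, natural killer cell, B cell and myeloid markers were present at lower levels, as given below. Of the 270 segments, 164 passed the filter of a mean FPKM of at least 1 and were tested with limma, and 56 had reads but stayed under it. The other 50 had 0 reads in every library, which allows up to 3 reads in each for counting error. That bound does not hold for copies such as Trav12d-1 and Trav14n-2, in which 100% of the 50-base stretches also occur in another segment. How reads shared by copies were counted is not given. FPKM weighs short genes heavily. At the median J length of 60 bases, 1 read was worth 0.940 FPKM in control replicate 1, against 0.156 for a V segment of median length (362 bases) and 0.0614 for a C gene (919 bases). Hence 20 J segments passed the filter with fewer than 20 reads over all libraries.

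None of the 164 tested segments passed a Benjamini-Hochberg adjusted p of 0.05 in limma (background 0% of the 12166 genes tested), and the lowest adjusted p was 0.196. At an unadjusted p under 0.05, 18 segments were lower in DMF, where 6.31% of all tested genes were, and 7 were higher, where 3.14% of all tested genes were. TRD and TRG segments, where the filter favours negative fold changes as described below, made up 9 of the 18. The count of 18 is therefore not read as a trait of the receptor segments. The voom form of limma, run on reads, likewise gave 0 adjusted calls, with 7 segments lower and 2 higher at an unadjusted p under 0.05. No share of all tested genes is at hand for these voom counts. Both DMF libraries lay below both controls for 47 segments (background 26.8%) and above both for 18 (background 26.4%). TRD and TRG segments made up 9 of the 47. Counted by RPM, 37 segments lay below and 22 above, with no background at hand on that scale. The median log2 fold change of the tested segments, on the log2(FPKM + 1) scale, was -0.003, and that of all tested genes was -0.01. The segment median depended on the controls: it was -0.25 (all genes 0.01) without control replicate 2 and 0.15 (all genes -0.05) without control replicate 1. By locus the medians were 0.15 for the 113 tested TRA segments and -0.29 for the 39 TRB segments. Of the 26 TRD and TRG segments, 12 passed the filter, and 8 of these had a DMF mean under 1 FPKM. Segments that pass mainly through the controls tend to have negative fold changes, so no median is given for them and the sums below cover all 26. For any single value, a two-sided exact permutation test of 2 against 2 libraries cannot give a p below 0.333. Without control replicate 2, the limma fit called 15 segments (13 lower, 2 higher) among 1007 genes, and 83 segments lay below the remaining control and 26 above it, where 39.6% and 43.4% of all tested genes did. Without control replicate 1 it called 62 (25 lower, 37 higher) among 7420 genes, and 55 segments lay below the remaining control and 64 above it, where 49% and 43.6% of all tested genes did.

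**Figure D1:**
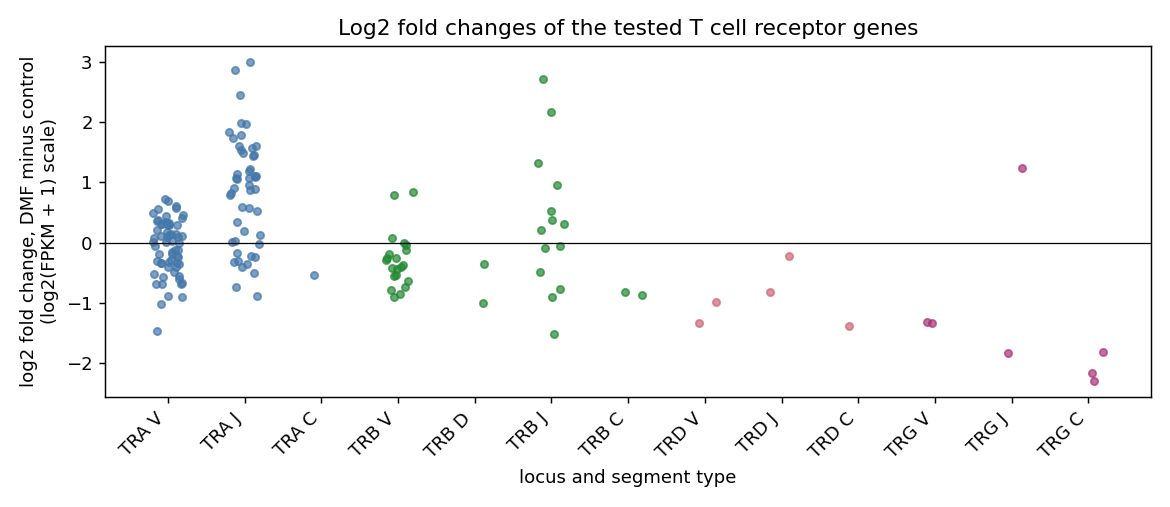
Log2 fold change of each tested receptor segment (DMF minus control, limma on log2(FPKM + 1)), 1 point per segment, grouped by locus and segment type. The alpha segments spread to both sides of 0 around a median of 0.15. Only 12 of the 26 gamma and delta segments are plotted, 8 of them with a DMF mean under 1 FPKM, so the filter favours points below 0 there.

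The alpha beta constant genes encode the membrane-proximal part of each chain. Trac (GRCm38 chromosome 14, 54220521 to 54224206, plus strand, 4 exons) was at 324 and 689 FPKM in the controls and 339 and 314 FPKM in DMF. The DMF values lay on either side of control replicate 1, and control replicate 2 was the high library. Its log2 fold change was -0.53 ± 0.47 (SE, limma adjusted p = 0.600, 0.00217 to 1 over 15 alternatives), and without control replicate 2 it was 0.01. Trbc1 (chromosome 6, 41538218 to 41539881, plus strand) was at 356 and 804 FPKM in the controls and 304 and 282 FPKM in DMF. Trbc2 (chromosome 6, 41546730 to 41548352, plus strand) was at 587 and 1352 FPKM in the controls and 517 and 491 FPKM in DMF. For both beta constant genes each DMF library was below each control, but most of the distance was again to control replicate 2. Their log2 fold changes were -0.87 ± 0.49 and -0.82 ± 0.53 (SE), each at a limma adjusted p of 0.561 (0.00165 to 1 and 0.0014 to 1 over 15 alternatives), and -0.28 and -0.22 without control replicate 2. Quantile normalization gave -0.21 and -0.08. Without control replicate 1, which leaves the high library as the only control, the log2 fold changes were -1.08 for Trac, -1.45 for Trbc1 and -1.42 for Trbc2. The low end of each range of limma adjusted p above came from that fit, so it is not read as a result about these genes.

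Trbc1 and Trbc2 are near-identical copies, shown here because their reads are hard to assign. Their first coding exons differ at 1 of 375 bases, and their first 120 bases are the same. The stretch from chr6:41538218-41538337 (plus strand, GENCODE M21 transcript, GRCm38), which is also that of Trbc2 at chr6:41546730-41546849, is printed in lower case throughout since no base differs.
Trbc1: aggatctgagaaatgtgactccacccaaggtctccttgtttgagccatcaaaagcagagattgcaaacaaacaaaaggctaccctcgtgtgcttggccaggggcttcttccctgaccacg
Of all 50-base stretches, 40.5% of those in Trbc1 and 44.0% of those in Trbc2 also occur in another receptor segment. The split between the copies is therefore uncertain, although it was alike in the 4 libraries: Trbc1 held 39.6% and 39.2% of the Trbc reads in the controls and 38.9% and 38.3% in DMF.

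Summed over each locus, TRA was at 462 and 655 RPM in the controls and 483 and 456 RPM in DMF, so the groups overlapped. The TRA means were 559 ± 136 and 469 ± 19.2 (SD, n = 2), a log2 ratio of -0.25 that turned to 0.02 without control replicate 2. TRB was at 957 and 1595 RPM in the controls and 860 and 828 RPM in DMF, with means of 1276 ± 451 and 844 ± 22.8 (SD, n = 2) and a log2 ratio of -0.60. Both DMF libraries were below both controls, and the log2 ratio was -0.18 without control replicate 2. The V genes of TRB alone were close together, at 219 and 229 RPM in the controls and 200.1 and 199.5 RPM in DMF.

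**Figure D2:**
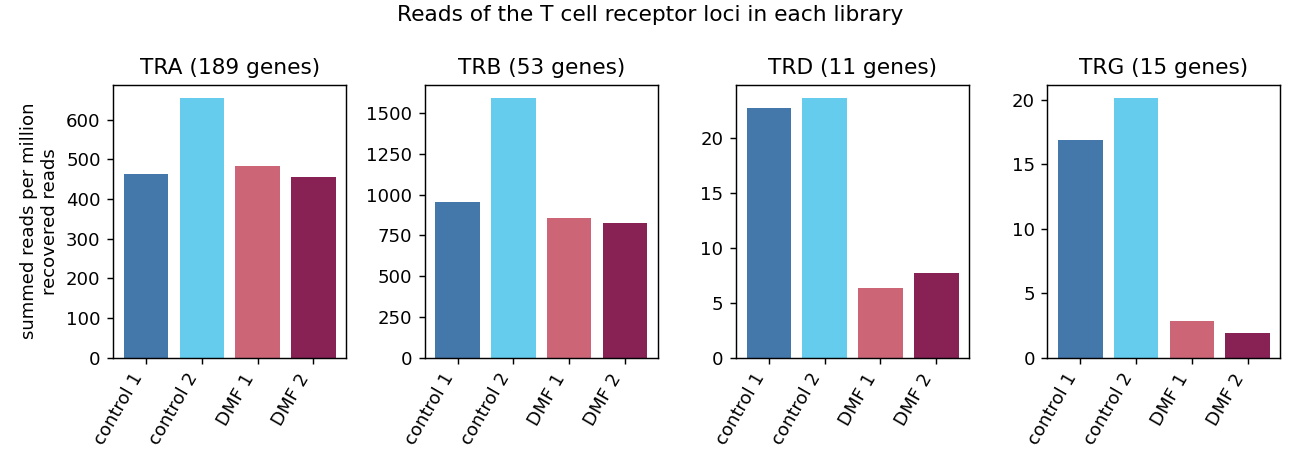
RPM summed over each receptor locus, with 1 bar per library on linear axes that start at 0 and differ in scale between panels. The TRD and TRG bars of both DMF libraries, 6.30 and 7.71 and 2.86 and 1.88 RPM, are below both controls, while the TRA bars of the groups overlap.

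The alpha beta chains reach the cell surface only together with the CD3 proteins and the zeta chain. Cd3d was at 144 and 338 FPKM in the controls and 115 and 117 FPKM in DMF, with a high value in control replicate 2 like that of the C genes. Cd247, which encodes the zeta chain, was at 23.0 and 31.4 FPKM in the controls and 14.6 and 13.7 in DMF. Cd3g was at 55.3 and 99.6 FPKM in the controls and 40.8 in both DMF libraries, and Cd3e at 48.2 and 57.3 in the controls and 47.3 and 46.0 in DMF. For all 4 genes of the CD3 list the DMF values were under both control values (background 26.8%), and none passed limma's adjusted threshold. For Cd3e this order rests on the FPKM scaling, since its reads were 3483 and 3257 in the controls and 3530 and 3508 in DMF. The median log2 fold change of the 4 genes was -0.86, and it was -0.37 without control replicate 2 and -0.49 under quantile normalization. Per CD3 read there were 1.70 and 1.89 alpha beta V and C reads in the controls and 1.94 and 1.85 in DMF, which overlapped. The log2 ratio of 0.08 was smaller than the spread between the controls, and it was -0.52 when Cd3e alone was the divisor.

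The V and C sums of the delta and gamma loci of each DMF library lay under those of each control, while their J sums, of at most 8 reads, overlapped. TRD was at 22.8 and 23.6 RPM in the controls and 6.30 and 7.71 in DMF. The groups did not overlap, with means of 23.2 ± 0.620 and 7.0 ± 0.99 (SD, n = 2), a ratio of 3.31. TRG was at 16.8 and 20.1 RPM in the controls and 2.86 and 1.88 in DMF. Their means were 18.5 ± 2.33 and 2.37 ± 0.690 (SD, n = 2), a ratio of 7.79. Together the 2 loci gave 2.71% and 1.91% of receptor reads in the controls and 0.678% and 0.742% in DMF. In these bulk libraries fewer cells of a type and less RNA per cell cannot be told apart.

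Trdc (chromosome 14, 54142851 to 54148868, plus strand, 4 exons) encodes the delta constant region and held most TRD reads. It had 316 and 345 reads in the controls and 93 and 117 in DMF, or 5.51 ± 1.27 and 1.47 ± 0.217 FPKM (SD, n = 2). The log2 fold change was -1.39 ± 0.23 (SE, limma adjusted p = 0.239, 0.00308 to 1 over 14 alternatives). Of the delta V genes, Trdv1 had 40 and 14 reads in the controls and 4 and 12 in DMF, and Trdv5 had 24 and 9 against 6 and 4. The annotated interval of Trdv5 (chromosome 14, 54148662 to 54149294) overlaps the end of Trdc, so reads there may be shared. The 2 delta D segments had 0 reads in every library.

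The gamma locus has 4 constant genes, which lie in clusters with V and J segments. Tcrg-C1 (chromosome 13, 19214103 to 19217024, plus strand) had 42 and 42 reads in the controls and 0 and 4 in DMF. Tcrg-C2 (chromosome 13, 19304649 to 19307551, minus strand) had 93 and 152 reads in the controls and 22 and 15 in DMF. Tcrg-C4 (chromosome 13, 19344558 to 19352756, plus strand) had 68 and 97 reads in the controls and 10 and 1 in DMF. For each of these genes every DMF library was below every control. Their log2 fold changes were -1.81 ± 0.25 for Tcrg-C1, -2.16 ± 0.38 for Tcrg-C2 and -2.30 ± 0.37 for Tcrg-C4 (SE), and limma put them at adjusted p = 0.201, 0.247 and 0.224. At these low values the size depends on the added constant: with a pseudocount of 0.1 the log2 fold changes were -4.04, -2.83 and -4.07, and in limma's voom -4.88, -2.74 and -4.43. The 14 alternatives gave limma adjusted p-values of 0.000218 to 0.50 for Tcrg-C1 and of 1.11e-07 to 0.463 for Tcrg-C2 and Tcrg-C4, the lowest values being those with the replicate number as a block. Tcrg-C3 (chromosome 13, 19260884 to 19263528, plus strand), at 5 and 3 reads in the controls and 2 and 0 in DMF, was under the filter. Among the V genes, Trgv2 had 33 and 12 reads in the controls and 1 and 8 in DMF, and Tcrg-V1 had 26 and 7 against 3 and 2. Trgj4 had 3 and 2 reads in the controls and 0 in both DMF libraries. These counts lie at the floor, so its place among the 5 lowest limma p-values of the lower segments (adjusted p = 0.196, 0.000254 to 0.485 over 14 alternatives) rests on 5 reads.

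The first 120 coding bases of the gamma constant genes are shown because they tell how far reads can separate the genes. Capitals mark bases that differ from Tcrg-C1, all in GRCm38 from GENCODE M21 transcripts and in the direction of transcription: Tcrg-C1 at chr13:19214103-19214222 (plus strand), Tcrg-C2 at chr13:19307432-19307551 (minus strand) and Tcrg-C4 at chr13:19344558-19344677 (plus strand).
Tcrg-C1: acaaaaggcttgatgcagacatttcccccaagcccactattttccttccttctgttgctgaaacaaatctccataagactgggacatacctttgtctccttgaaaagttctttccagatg
Tcrg-C2: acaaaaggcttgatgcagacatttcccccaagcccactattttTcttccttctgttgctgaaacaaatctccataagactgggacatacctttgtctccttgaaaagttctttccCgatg
Tcrg-C4: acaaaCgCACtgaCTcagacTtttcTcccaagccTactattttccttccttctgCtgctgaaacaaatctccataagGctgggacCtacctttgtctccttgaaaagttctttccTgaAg
Tcrg-C2 differs from Tcrg-C1 at 2 of these bases and Tcrg-C4 at 14. Over the whole first coding exon of 330 bases, Tcrg-C1 was 97.3% identical to Tcrg-C2, 96.1% to Tcrg-C3 and 82.1% to Tcrg-C4. The values of Tcrg-C1, Tcrg-C2 and Tcrg-C3 are therefore uncertain one by one. Tcrg-C4 shares no 50-base stretch with another segment, and its DMF values too lay under both control values.

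A ratio within a library does not depend on its scaling. Gamma C reads per 1000 Trac reads were 38.7 and 32.7 in the controls and 5.86 and 3.65 in DMF, a log2 ratio of -2.91. Trdc reads per 1000 Trac reads were 58.8 and 38.4 in the controls and 16.0 and 21.3 in DMF, a log2 ratio of -1.38. Both DMF libraries were below both controls in each ratio, with no library in between. Leaving out each library in turn gave log2 ratios of -3.29 to -2.61 for the gamma C genes and -1.65 to -1.04 for Trdc.

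**Figure D3:**
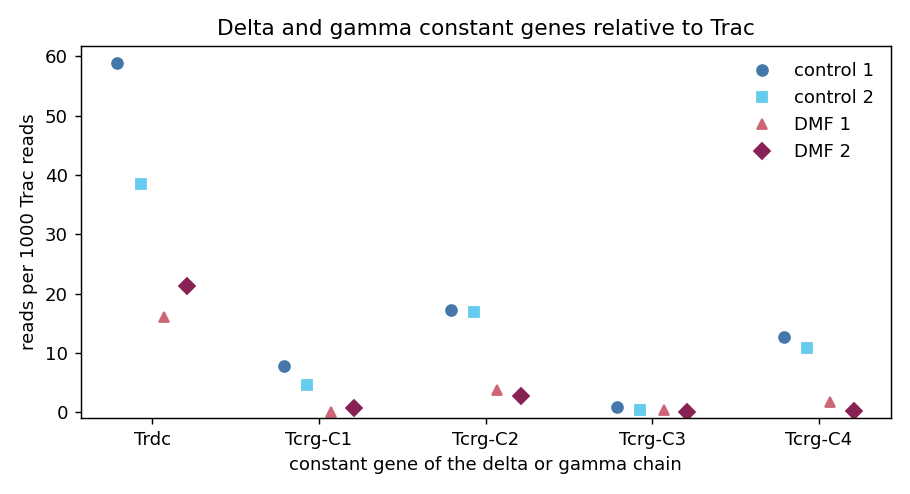
Reads of Trdc and of each gamma constant gene per 1000 Trac reads, 1 point per library. The DMF points lie at 16.0 and 21.3 for Trdc, below 58.8 and 38.4 in the controls, and are also below both controls for Tcrg-C1, Tcrg-C2 and Tcrg-C4.

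Among markers of other cell types, those of CD8 T cells, the tested myeloid markers and Klrd1 were also lower in DMF, while most of those of B cells were higher. The summed FPKM of the CD8 T and natural killer cell markers was 11.9 and 20.2 in the controls and 2.55 and 2.51 in DMF. All 3 tested members of 5 lay below both controls (background 26.8%). Of these, Cd8a and Klrd1 had DMF means under 1 FPKM (0.0820 and 0.440) and passed the filter mainly through the controls. The filter thus favours that order for them, and the count is not read as a result. The gap differed between the CD8 genes, as the ratio of control to DMF mean FPKM was 3.52 for Cd8b1 and 23.4 for Cd8a. Reads of Cd8b1 numbered 130 and 190 (controls) against 63 and 47 (DMF). Cd8a, the CD8 alpha chain, had 108 and 110 reads in the controls and 7 and 4 in DMF, or 11.8 and 18.7 reads per 1000 Cd4 reads in the controls and 0.922 and 0.530 in DMF. Klrd1, the CD94 chain of natural killer receptors, had 120 and 158 reads in the controls and 3 and 18 in DMF, while the defining natural killer genes Klrb1c and Ncr1 were at 0 reads in all libraries. Of the gamma delta T cell markers outside the receptor, Sox13, a transcription factor, had 17 and 9 reads in the controls and 12 and 28 in DMF. Blk, a Src-family kinase that B cells also use, had 43 and 29 reads in the controls and 94 and 107 in DMF, where the summed FPKM of 6 B cell markers was also higher (9.80 and 13.6 in the controls, 23.5 and 22.8 in DMF). Of the 4 myeloid markers, 2 (Lyz2 and Cd14) were tested and both lay below both controls. Their DMF means were 0.992 and 0.550 FPKM, so the filter favours that order here too. The summed FPKM over the list was 4.07 and 6.83 in the controls and 2.24 and 1.10 in DMF. The part of these cell types in the receptor values was not tested.

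Trav genes that also carry a delta V name can join either chain. Trav15-2-dv6-2 had 25 and 10 reads in the controls and 3 and 2 in DMF (log2 fold change -1.46 ± 0.32, SE, limma adjusted p = 0.331). The dv genes of family 15 together had 47 and 18 reads in the controls and 19 and 9 in DMF. The raw count of DMF replicate 1 was just above that of control replicate 2, the library with the fewest recovered reads. Relative to the recovered reads of each library, both DMF values lay below both controls, by a narrow margin. The dv genes of the other families had 190 and 165 reads in the controls and 186 and 214 in DMF, which overlapped.

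V genes encode most of the part of the chain that touches antigen, and their shares of reads describe the makeup of the receptors in a culture. All 22 Trbv genes had reads in 3 libraries, and 21 of them did in DMF replicate 2. The most read was Trbv13-2, a member of the family known in mouse serology as V beta 8, with 14.5% and 14.6% of Trbv reads in the controls and 14% and 13.6% in DMF. Trbv1 followed with 10.1% and 12.0% in the controls and 11.7% and 15.4% in DMF, and its share in DMF replicate 2 (95% Wilson interval 14.3 to 16.7%) was above those of the other 3 libraries. Trbv31 was at 9.09% and 9.38% in the controls and 12.0% and 9.38% in DMF. Trbv3, Trbv2, Trbv19, Trbv16 and Trbv13-1 made up the rest of the 8 most read genes, and the groups overlapped in the share of each. The order of the genes was nearly the same in every pair of libraries (Spearman's rho 0.961 to 0.987 across 21 genes, which are not independent replicates).

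Trbv15 was the most read Trbv gene whose limma p lay under 0.05 before adjustment. It had 238 and 200 reads in the controls against 134 in each DMF library, which is 6.36% and 5.50% of Trbv reads against 3.94% and 3.85%. The lower bounds of the control intervals were 5.62% and 4.81% and the upper bounds in DMF 4.64% and 4.54%, for counting error only, since reads without molecular identifiers are not independent molecules. Its log2 fold change was -0.90 ± 0.17 (SE, limma adjusted p = 0.277, 0.00214 to 1 over 15 alternatives). Trbv29 was next in the same direction, with 2.89% and 3.3% in the controls and 2.06% and 2.07% in DMF. In the other direction, Trbv30 had 7 and 4 reads in the controls against 16 in DMF replicates 1 and 2 alike, and Trbv5 had 3 in each control against 11 in each DMF library. Their log2 fold changes of 0.83 ± 0.22 and 0.78 ± 0.22 (SE) had limma adjusted p of 0.396 and 0.450 (0.0132 to 1 and 0.0403 to 1 over 14 alternatives). For Trbv15, Trbv30 and Trbv5 the low end of the range of limma adjusted p came from the fit without control replicate 1, which leaves 1 control. Trbv15 and Trbv29 were chosen here after their values were seen. Over the 21 Trbv genes with at least 20 reads, the share was below both controls in 8 and above both in 3. No background is at hand for shares, and those of a locus are not independent of one another, so these counts only describe the libraries.

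**Figure D4:**
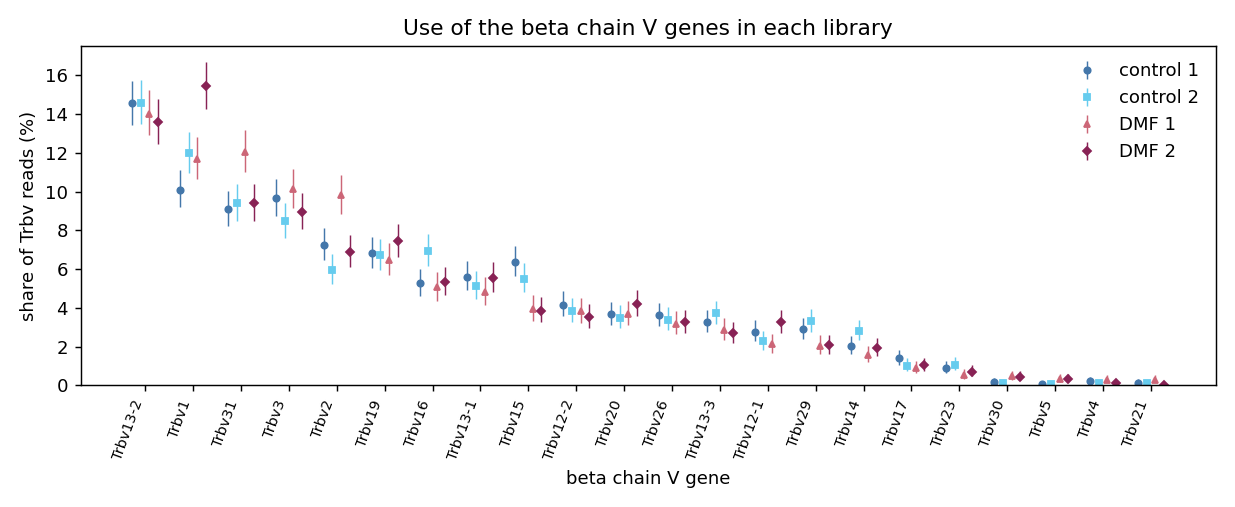
Share of Trbv reads held by each Trbv gene, 1 point per library with its 95% Wilson interval, in percent. Trbv13-2 lies at 13.6 to 14.6% and leads in all libraries but DMF replicate 2, where Trbv1 reaches 15.4%, and the Trbv15 points of the groups are apart.

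The evenness of V use was summarised as an effective number of genes. The effective number of Trbv genes, the exponential of the Shannon entropy of their shares, was 15.3 and 15.1 in the controls and 14.5 and 14.6 in DMF. Both DMF libraries were lower than both controls, with a mean difference of -0.669. For the 108 Trav genes the effective number was 53.7 and 51.1 in the controls and 46.3 and 52.1 in DMF, so the groups overlapped. Differences in Trbv shares between replicates were already larger than counting error, with a chi-square per degree of freedom of 2.19 between the controls and 3.52 between the DMF libraries, against 4.46 to 6.19 between libraries of different groups. For Trav the same measure was 3.37 and 5.54 within groups and 3.19 to 5.87 between them, so the ranges overlapped.

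The alpha locus holds many recently duplicated V genes, and 100 of its 108 V genes share at least 1 stretch of 50 bases with another segment (median 68.6% of stretches), against 3 of 22 Trbv genes. Single Trav values are therefore less certain than Trbv values. Trav7-4 had 90 and 63 reads in the controls and 98 and 63 in DMF, and Trav9-1 75 and 61 against 80 and 50, so that replicates of a group differed as much as the groups. Trav14n-3 had 76 and 51 reads in the controls and 101 and 84 in DMF. Trav14-2 had 44 in each control and 94 and 73 in DMF, with a log2 fold change of 0.61 ± 0.23 (SE, limma adjusted p = 0.527). Trav14n-3, Trav14-2, Trav14-3 and Trav14d-3-dv8 are of 1 family, and the share of each in Trav reads was above both controls in both DMF libraries. Summed to that family, the share was 18.1% and 15.4% in the controls and 20.8% and 19.4% in DMF. Such a sum does not need the copies to be told apart, but it may miss reads that match several copies. How those reads were counted is not given. Family 8 was at 4.91% and 4.38% in the controls and 6.50% and 7.35% in DMF, and family 15 at 2.59% and 2.04% against 1.04% and 0.513%. Family 7 was at 13.3% and 13% in the controls and 13.6% and 13.4% in DMF. These shares were not tested and were picked after they were seen. Of the 64 Trav genes with at least 20 reads, the share was below both controls in 16 and above both in 11, again with no background for shares.

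Along the locus, the 36 V genes nearest to Trac (243 to 777 kb upstream) held 63.9% and 68.1% of Trav reads in the controls and 69.96% and 60.8% in DMF. The 36 farthest genes (1212 to 1792 kb upstream) held 12.2% and 14.4% in the controls and 10.4% and 15.4% in DMF. The groups overlapped in both.

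J segments carry the Phe-Gly-X-Gly stretch that closes the antigen-binding loop. Their coding strand was searched, without regard to reading frame, for TT and any base, GG and any base, any 3 bases, and GG, and for no other motif. This pattern takes the codons of that stretch and some leucine codons as well, so a match is not shown to be the stretch itself. It matched 57 of 70 J genes (81.4%), 2 of 10 J pseudogenes and 0.798% of 1002 windows of 60 bases from V segments. The 3 most read J segments of each of the alpha and beta loci and the 3 J genes with the lowest limma p among the higher segments are shown, with every matched base in capitals (in Traj7, 2 overlapping matches in different frames). They lie on the plus strand of GRCm38 (GENCODE M21 transcripts), Traj33 at chr14:54185358-54185414, Traj24 at chr14:54195638-54195700, Traj21 at chr14:54198790-54198846, Traj7 at chr14:54211470-54211528, Traj2 at chr14:54217836-54217901, Traj1 at chr14:54218814-54218842, Trbj1-4 at chr6:41534811-41534861, Trbj1-5 at chr6:41535084-41535133 and Trbj2-7 at chr6:41543810-41543856.
Traj33: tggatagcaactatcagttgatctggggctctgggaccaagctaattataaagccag
Traj24: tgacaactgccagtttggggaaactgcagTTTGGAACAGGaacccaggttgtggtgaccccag
Traj21: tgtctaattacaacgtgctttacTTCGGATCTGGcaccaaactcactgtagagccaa
Traj7: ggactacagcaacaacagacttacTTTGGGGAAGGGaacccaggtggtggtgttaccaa
Traj2: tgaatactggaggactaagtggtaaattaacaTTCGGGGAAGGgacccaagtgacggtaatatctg
Traj1: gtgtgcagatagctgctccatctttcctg
Trbj1-4: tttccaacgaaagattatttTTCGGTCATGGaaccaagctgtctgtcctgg
Trbj1-5: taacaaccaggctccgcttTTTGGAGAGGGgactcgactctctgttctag
Trbj2-7: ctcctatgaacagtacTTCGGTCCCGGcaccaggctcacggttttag
The 29 bases of Traj1, a pseudogene, and the 57 of Traj33 held no match on that strand.

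Traj24 (63 bases) had 6 and 4 reads in the controls and 18 and 22 in DMF, or 5.37 and 4.56 FPKM against 15.6 and 18.7. Both DMF libraries were above both controls. The log2 fold change was 1.60 ± 0.19 (SE, limma adjusted p = 0.196, 0.000208 to 0.730 over 15 alternatives). Traj21 had 10 and 3 reads in the controls and 17 and 26 in DMF (log2 fold change 1.54 ± 0.47, SE, limma adjusted p = 0.478, 0.000548 to 1 over 15 alternatives), and its log2 fold change was 0.94 without control replicate 2. Traj33 had 1 and 0 reads in the controls and 6 and 19 in DMF (log2 fold change 3.00 ± 0.63, SE, limma adjusted p = 0.310, 1.60e-14 to 0.485 over 15 alternatives). Such counts are too small for a precise fold, and the values of DMF replicates 1 and 2 for Traj33 were themselves far apart. Among the most read Traj segments, control replicate 2 had the lowest count of each: Traj2 had 32 and 6 reads in the controls and 51 and 28 in DMF, Traj7 had 24 and 1 against 34 and 53, and Traj1 had 42 and 11 against 19 and 34.

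Over all 60 Traj segments there were 660 and 89 reads in the controls and 615 and 702 in DMF, so control replicate 1 lay within the DMF values and control replicate 2 far below them. Reads fell with distance from Trac in each library. The 15 segments nearest to Trac (1.68 to 17.3 kb upstream) held 396 and 39 reads in the controls and 344 and 413 in DMF. The 15 farthest (48.7 to 65.4 kb upstream) held 16 and 2 reads in the controls and 22 and 3 in DMF. Spearman's rho of reads with distance was -0.94 and -0.47 in the controls and -0.86 and -0.93 in DMF, across 60 segments that share a library and a locus.

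**Figure D5:**
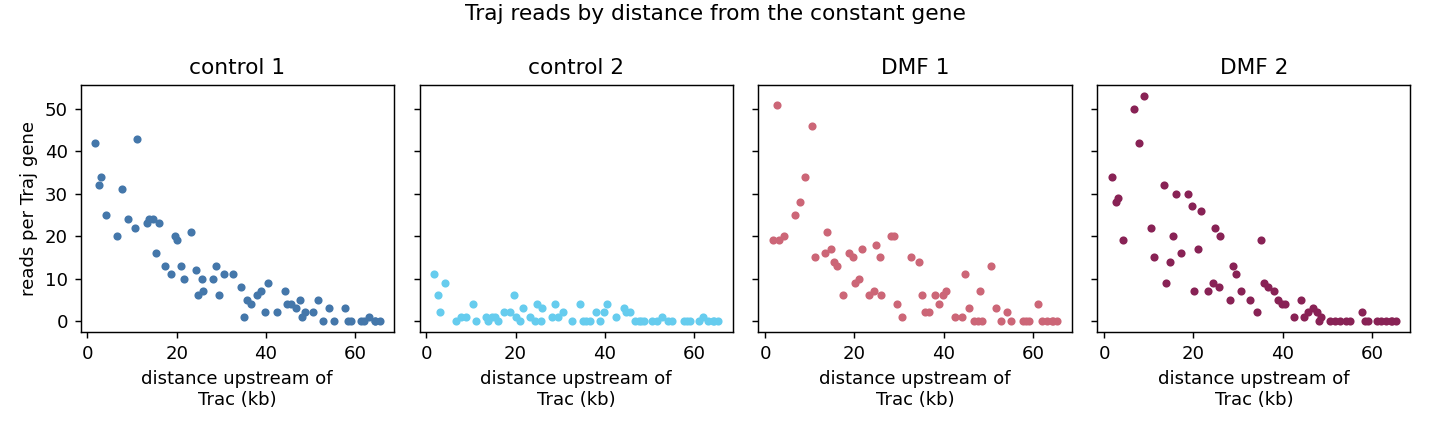
Reads of each Traj segment against its distance upstream of Trac in kb, 1 panel per library. Reads are highest near Trac in every library, and control replicate 2, with 89 reads in all, is far below the 615 to 702 reads of the other 3.

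The beta J clusters differed from one another in control replicate 2. Trbj1 segments, which lie before Trbc1, had 427 and 42 reads in the controls and 323 and 352 in DMF. Trbj2 segments, which lie before Trbc2, had 269 and 207 reads in the controls and 206 and 321 in DMF. Per 1000 reads of their constant gene, Trbj1 was at 90.4 and 5.01 in the controls and 77.5 and 89.3 in DMF, and Trbj2 at 37.4 and 15.9 against 31.5 and 50.6. The shortfall in control replicate 2 was thus deeper for Trbj1 than for Trbj2. Trbj1-5 had 96 and 8 reads in the controls and 79 and 91 in DMF, Trbj1-4 had 65 and 2 against 75 and 65, and Trbj2-7 had 79 and 54 against 74 and 107. Trbd1, the D segment of 12 bases before the Trbj1 cluster (chromosome 6, 41533201 to 41533212), is shown because its length sets its FPKM.
Trbd1: gggacagggggc
It had 46 reads in each control and 44 and 41 in DMF, which at this length came to 216 and 275 FPKM in the controls and 200 and 183 in DMF. It did not share the low counts of Trbj1 in control replicate 2.

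V segments of receptors with a fixed alpha chain had few reads. Trav11 and Trav11d, which with Traj18 form the alpha chain of invariant natural killer T cells, had 0 and 4 reads in the controls and 0 and 1 in DMF. Traj18 had 20 and 6 reads in the controls and 15 and 27 in DMF. Zbtb16, the transcription factor of those cells, had 0 and 2 against 4 and 0. For Trav11 and for Trav11d, 100% of the stretches compared above also occur in another segment. Since the counting of shared reads is not given, their low counts do not show low use of these V segments. Trav1, which joins Traj33 in mucosal-associated invariant T cells, had 9 and 10 reads in the controls and 0 and 7 in DMF. Trav1 thus did not move with Traj33.

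Genes that build or regulate the receptor loci were read from lists, whose counts stand beside a background of 26.8% of all tested genes below both controls and 26.4% above both. Of 11 recombination and precursor genes, 7 were tested and 0 passed limma's adjusted threshold, with 2 below both controls, 4 above and a median of 0.19 (0.11 without control replicate 2). The RAG genes that start recombination were near 0, with 1, 0, 4 and 0 reads for Rag1 and 0 in all libraries for Rag2 (control replicates 1 and 2, then DMF replicates 1 and 2), and Ptcra, the pre-T cell receptor chain, had 0, 1, 2 and 0. The end-joining kinase Prkdc was at 4.18 and 1.75 FPKM in the controls and 4.58 and 5.07 in DMF, with control replicate 2 the low library. Of 10 transcription factors that bind receptor loci, 6 were below both controls and 3 above (median -0.37), and 0 passed. Tcf7, which encodes TCF-1, was at 325 and 271 FPKM in the controls and 159 and 155 in DMF. Ets1 was at 72.9 and 46.4 against 30.2 and 31.7 FPKM, while Myb went the other way, at 6.80 and 6.68 against 11.3 and 11.7 FPKM. Of 7 genes of receptor turnover, 6 were tested, 3 were below both controls and 0 above or past the adjusted threshold (median -0.35, -0.54 without control replicate 2 and -0.17 without control replicate 1). Sla2, an adaptor known to lower surface receptor, was at 3.95 and 4.98 FPKM in the controls and 1.89 and 1.56 in DMF, and Cblb, a ubiquitin ligase, at 17.5 and 10.6 against 11.2 and 11.3. The 3 coreceptor genes were tested 1 by 1, with no test of the list. All lay below both controls, and 0 passed limma's adjusted threshold. For Cd8a, with a DMF mean of 0.0820 FPKM, the filter favours that order. Cd4 was at 128 and 105 FPKM in the controls and 103 and 100 in DMF. Cd4 reads were 9133 and 5875 in the controls against 7593 and 7550 in DMF, lowest in control replicate 2. The order of the groups for Cd4 thus rests on the FPKM scaling.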

How the data were processed

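Per the labels, libraries of total RNA were read on an Illumina HiSeq2000. The values deposited by the authors are FPKM per gene and library, with biotype, coordinates and length for each gene, per the file headers. Aligner, counting program and use of strand: not given in the sources used here. edgeR, with no role stated, and build mm8 are named in the submitters' processing notes. All 270 segments have the same coordinates in GENCODE M21 (GRCm38), which is the build given.

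In each library, FPKM times gene length came in whole steps (100% of values, within 0.01), and the number of steps is the recovered reads of a gene. The size of a step implies library sizes of 17725674 and 13929627 reads for the controls, and 18302380 and 18672223 reads for DMF. For control replicate 2 this is under its 15900118 recovered reads, and for each other library it is above them. Trimmed mean factors computed here were 1.02 and 0.862 for the controls and 1.07 for each DMF library. What set the implied sizes is not given and was not tested. limma 3.58.1 in R 4.3.3 (lmFit, eBayes with a trend) was fitted on log2(FPKM + 1) over the 12166 genes whose mean FPKM reached 1, two-sided and DMF minus control. Calls used a Benjamini-Hochberg adjusted p under 0.05. The added 1 shrinks log2 fold changes of genes with low values. Locus sums used RPM, with genes on chromosome 13 named Tcrg- counted as TRG. The marker names Trgc1 and Trgc2 were read as Tcrg-C1 and Tcrg-C2, the names in the table. Scripts were tested on simulated data.

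The segments and gene lists were chosen with earlier results of these data known. Named were all C genes, the 8 most read Trav and Trbv genes, the 5 tested segments with the lowest limma p in each direction, the 3 most read J segments of TRA and TRB, segments of invariant receptors, and list members. Others were named after their values were seen.

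Alternatives were other pseudocounts, filters, scalings (a trimmed mean of log ratios, written out with trims of 30% and 5%, among them) and eBayes forms, voom on recovered reads, other segment sets and diversity measures, a block for the replicate number, and leaving out single libraries. Chosen after the data were seen were TRG by Trg symbols only, the gamma and delta ratios to Trac, the counts below and above both controls, and list medians under other settings.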

Additional observations from a re-analysis of the deposited data

How the results depend on the processing

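No adjusted call was made in 10 other limma settings, voom included. The replicate block, which pairs equal replicate numbers, called 34 segments (10 lower, 24 higher), among 552 of 12166 genes. The labels do not say that a number marks a shared animal or day, and the replicates' deviations correlated at -0.0233 between groups. Leaving out 1 library gave 0 to 62 calls: 62 when it was control replicate 1, 15 for control replicate 2, 1 for DMF replicate 1 and 0 for DMF replicate 2. Scaling to recovered reads moved the median of all tested genes from -0.01 to 0.12 and that of the segments from -0.003 to 0.12. With 1 library left in a group, it is assumed to vary like the other group. In each such fit most called genes lay outside the receptor segments. The counts of called segments without single libraries are therefore not read as a result about the receptor loci. The replicate block turned no locus ratio. Leaving out libraries gave log2 ratios of -0.48 to 0.0219 for TRA, -0.92 to -0.18 for TRB, -1.88 to -1.59 for TRD, -3.29 to -2.69 for TRG and -3.29 to -2.61 for gamma C genes against Trac. V genes only gave 0.12 for TRA, -0.17 for TRB and -2.31 for TRG. TRD was -1.90 with implied library sizes and -1.92 with a trimmed mean of log ratios. TRG was -3.29 with constant genes only and -1.72 with Trg symbols only. The gamma C genes were at -3.29 against Cd3e and as RPM. Receptor against CD3 was -0.0218 with constant genes only and -0.52 with Cd3e only. The effective number of Trbv genes changed by -0.463 per base of length, -1.02 as inverse Simpson and -0.273 by family. With 1 library left out, the segments whose DMF values all lay below the control values numbered 55 to 83 (32.8 to 49% of all tested genes) and above them 26 to 64 (32.2 to 43.6%). Without DMF replicate 1 they were 68 below and 45 above (32.8% and 32.4% of all genes), and without DMF replicate 2 they were 60 and 46 (33% and 32.2%). Quantile normalization gave 0.10 for Trac, -0.21 for Trbc1 and -0.08 for Trbc2, and Trac was between -1.08 and 0.00887 without single libraries. The causes were not tested. Depth limits J segments and gamma genes, where a library with 0 reads may hold up to 3.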

Other observations

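Trav14n-1 had 61 reads in control replicate 1 but 5 in control replicate 2 and 8 in each DMF library. Trav9-4 had 40 and 62 reads in the controls and 57 and 27 in DMF, and Trav4-3 had 49 and 38 against 22 and 64, so that the DMF libraries differed widely from each other in single Trav genes that share 50-base stretches with other segments. Trbv21 was the single Trbv gene with 0 reads in a library, at 5 and 4 in the controls and 10 and 0 in DMF. A count of 0 allows up to 3 reads. These genes were picked after their values were seen.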
